A study of Homo sapiens with 32 samples.

Results

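The heat shock chaperones described here are 10 genes, HSPA8, HSP90AA1, HSP90AB1, HSPD1, HSPE1, HSPH1, HSPB1, DNAJB1, DNAJA1 and HSPA9, of 23073 genes in the deposited expression table. They were picked by symbol, with the response of these libraries to inhibitors of the histone lysine demethylase KDM1A already known. Their values in that comparison are therefore given as a description, without a test. All 10 had a value in each of the 32 libraries, and all 10 passed the filter on low values of at least 1 FPKM (a level scaled to transcript length and to the library's mapped fragments) in at least 2 libraries. The lowest value of any of them in any library was 15.1 FPKM.

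RNA was sequenced from 2 acute myeloid leukaemia cell lines, SKNO-1 and Kasumi-1, which are known for carrying the RUNX1-RUNX1T1 fusion. Cells received 1 µM RN-1 (an irreversible KDM1A inhibitor per the series text), 1 µM GSK690 (a reversible inhibitor), 1 µM GSK690* (an isomer of GSK690 that the series text calls inactive) or 0.1% DMSO vehicle. RNA was taken at 72 h and 24 h per the titles, with 2 biological replicates in each of the 16 groups; for SKNO-1 the treatment protocol gives 4 days where the titles give 72 h. SKNO-1 grew in RPMI medium with 10% fetal calf serum and 10 ng/mL GM-CSF, and Kasumi-1 in RPMI with 20% fetal calf serum and no listed GM-CSF. Cell line and medium therefore cannot be told apart, and each line is 1 line, so a difference between them is not one between patients or subtypes. The sample table among the deposited files names the opposite cell line for all 16 libraries of 72 h; the titles were used here, and on them the 72 h libraries correlated at 0.971 to 0.983 with the 24 h libraries of their own line and at 0.845 to 0.868 with those of the other (mean Pearson r over genes, on the log2 scale). Myeloperoxidase (MPO), a myeloid marker, had set medians of 1676 FPKM and above in both lines, while the progenitor marker CD34 had set medians of 99.6 to 153 FPKM in Kasumi-1 and of 0.478 to 1.42 FPKM in SKNO-1. KIT, CD33, SPI1 and RUNX1T1, also followed as markers of such lines, had set medians of 24.4 FPKM and above. CEBPA had set medians of 0.332 to 0.843 FPKM, and ANPEP of 5.17 and 5.51 FPKM in Kasumi-1 against 31.5 and 42.1 FPKM in SKNO-1. Of markers of other cell types, epithelial EPCAM read 61.0 to 83.5 FPKM in Kasumi-1. The B cell gene CD79B read 34.1 to 61.1 FPKM in SKNO-1 and 4.49 to 9.37 FPKM in Kasumi-1. The remaining ones read at most 2.04 FPKM. In bulk RNA of this kind, fewer cells with a transcript and less of it per cell cannot be told apart.

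Molecular chaperones bind unfolded or nascent proteins and keep them from aggregating. HSP70 proteins bind short hydrophobic stretches in a cycle driven by ATP, which J proteins start and nucleotide exchange factors complete; HSP90 takes on partly folded clients such as kinases and hormone receptors; the chaperonin HSP60 with its HSP10 lid folds proteins inside a cage in mitochondria; small heat shock proteins hold unfolded chains without ATP. Many of these genes are induced by the transcription factor HSF1, which binds repeated GAA units in alternating orientation, and acute leukaemia cells are known for high HSP90 and HSP70 levels without heat.

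The stretches upstream of 3 member genes, and the stretch shared by a pair of them, are shown because they differ in the repeats that HSF1 is known to bind. Sequences are from RefSeq on GRCh38.p14, on the gene's own strand (plus strand for the shared stretch), in lower case, with capitals marking each match to GAANNTTC or TTCNNGAA. Each motif reads the same on both strands, and the 2 kinds overlap one another in runs. All 10 members had an entry, with 16 starts in all.
HSPA8, chr11:123062137-123062386: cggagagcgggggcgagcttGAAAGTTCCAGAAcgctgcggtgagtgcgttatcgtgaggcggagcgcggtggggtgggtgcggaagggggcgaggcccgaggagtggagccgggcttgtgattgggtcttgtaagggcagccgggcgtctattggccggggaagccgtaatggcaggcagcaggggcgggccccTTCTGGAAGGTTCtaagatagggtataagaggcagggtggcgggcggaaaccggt
HSP90AA1, downstream start, chr14:102087045-102087294: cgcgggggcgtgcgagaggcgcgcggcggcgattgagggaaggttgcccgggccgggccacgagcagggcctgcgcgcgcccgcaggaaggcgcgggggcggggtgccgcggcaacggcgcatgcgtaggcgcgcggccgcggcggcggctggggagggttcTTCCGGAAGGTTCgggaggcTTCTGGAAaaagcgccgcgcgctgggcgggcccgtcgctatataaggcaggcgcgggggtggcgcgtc
HSPB1, chr7:76302423-76302672: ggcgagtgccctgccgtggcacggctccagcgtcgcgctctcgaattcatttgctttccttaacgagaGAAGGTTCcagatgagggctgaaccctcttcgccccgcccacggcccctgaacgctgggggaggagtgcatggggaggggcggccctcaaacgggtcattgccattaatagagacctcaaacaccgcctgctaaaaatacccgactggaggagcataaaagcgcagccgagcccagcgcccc
HSPD1 and HSPE1, chr2:197500275-197500378: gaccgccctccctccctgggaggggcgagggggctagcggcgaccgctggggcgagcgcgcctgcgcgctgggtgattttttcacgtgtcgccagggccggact
In HSPA8, 2 matches to GAANNTTC and 2 to TTCNNGAA form a run far from the start and one near it. Upstream of the downstream HSP90AA1 start lie 1 match to GAANNTTC and 2 to TTCNNGAA, whereas the 250 bases before its other start hold none. HSPB1 has 1 match to GAANNTTC. The 104 bases between the divergent HSPD1 and HSPE1 starts hold neither motif, and these genes share all of that stretch; a second HSPD1 start, further into the gene, has 1 match to GAANNTTC and 2 to TTCNNGAA upstream of it. Within 250 bases upstream of a start, 7 of the 16 member starts had a match, against 11.6% of 35116 RefSeq starts. By gene, 7 of the 10 members had a match at any of their starts, and no share by gene was computed for other genes. A match is a description of letters, not a bound site.

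As a group the 10 genes were among the abundant transcripts of both lines: their summed level was 2072.96 to 2597.2 FPKM over the 8 libraries of SKNO-1 at 72 h and 2455.7 to 3344.4 FPKM over those of Kasumi-1 at 24 h, or 0.563% to 0.697% and 0.673% to 0.870% of all FPKM. In SKNO-1 at 24 h the sum was 2056.5 to 2461.0 FPKM (0.568% to 0.714%), and in Kasumi-1 at 72 h 2101.5 to 2642.0 FPKM (0.586% to 0.730%). HSPA8, the constitutive cytosolic HSP70, was the highest, at 751 to 922 FPKM in SKNO-1 at 72 h, 770.0 to 958 FPKM in SKNO-1 at 24 h, 537 to 699 FPKM in Kasumi-1 at 72 h and 699.8 to 930.4 FPKM in Kasumi-1 at 24 h. HSP90AB1, the constitutive cytosolic HSP90, followed at 423 to 490.2 FPKM in SKNO-1 at 72 h and 548 to 679 FPKM in Kasumi-1 at 24 h. It read 442 to 514 FPKM in SKNO-1 at 24 h and 445 to 503 FPKM in Kasumi-1 at 72 h. HSP90AA1, its stress-inducible paralogue, lay below HSP90AB1 in every library, with a ratio of 0.553 to 0.863 over the 32 libraries. At the low end stood the small heat shock protein HSPB1 (HSP27) in SKNO-1, with 15.1 to 32.4 FPKM at 24 h, and the J protein DNAJB1 (HSP40), with 25.5 to 29.9 FPKM in the same libraries; these ranges overlap. HSPD1 (HSP60) exceeded HSPE1 (HSP10) in each library, by 1.32 to 1.75 times.

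**Figure D1:**
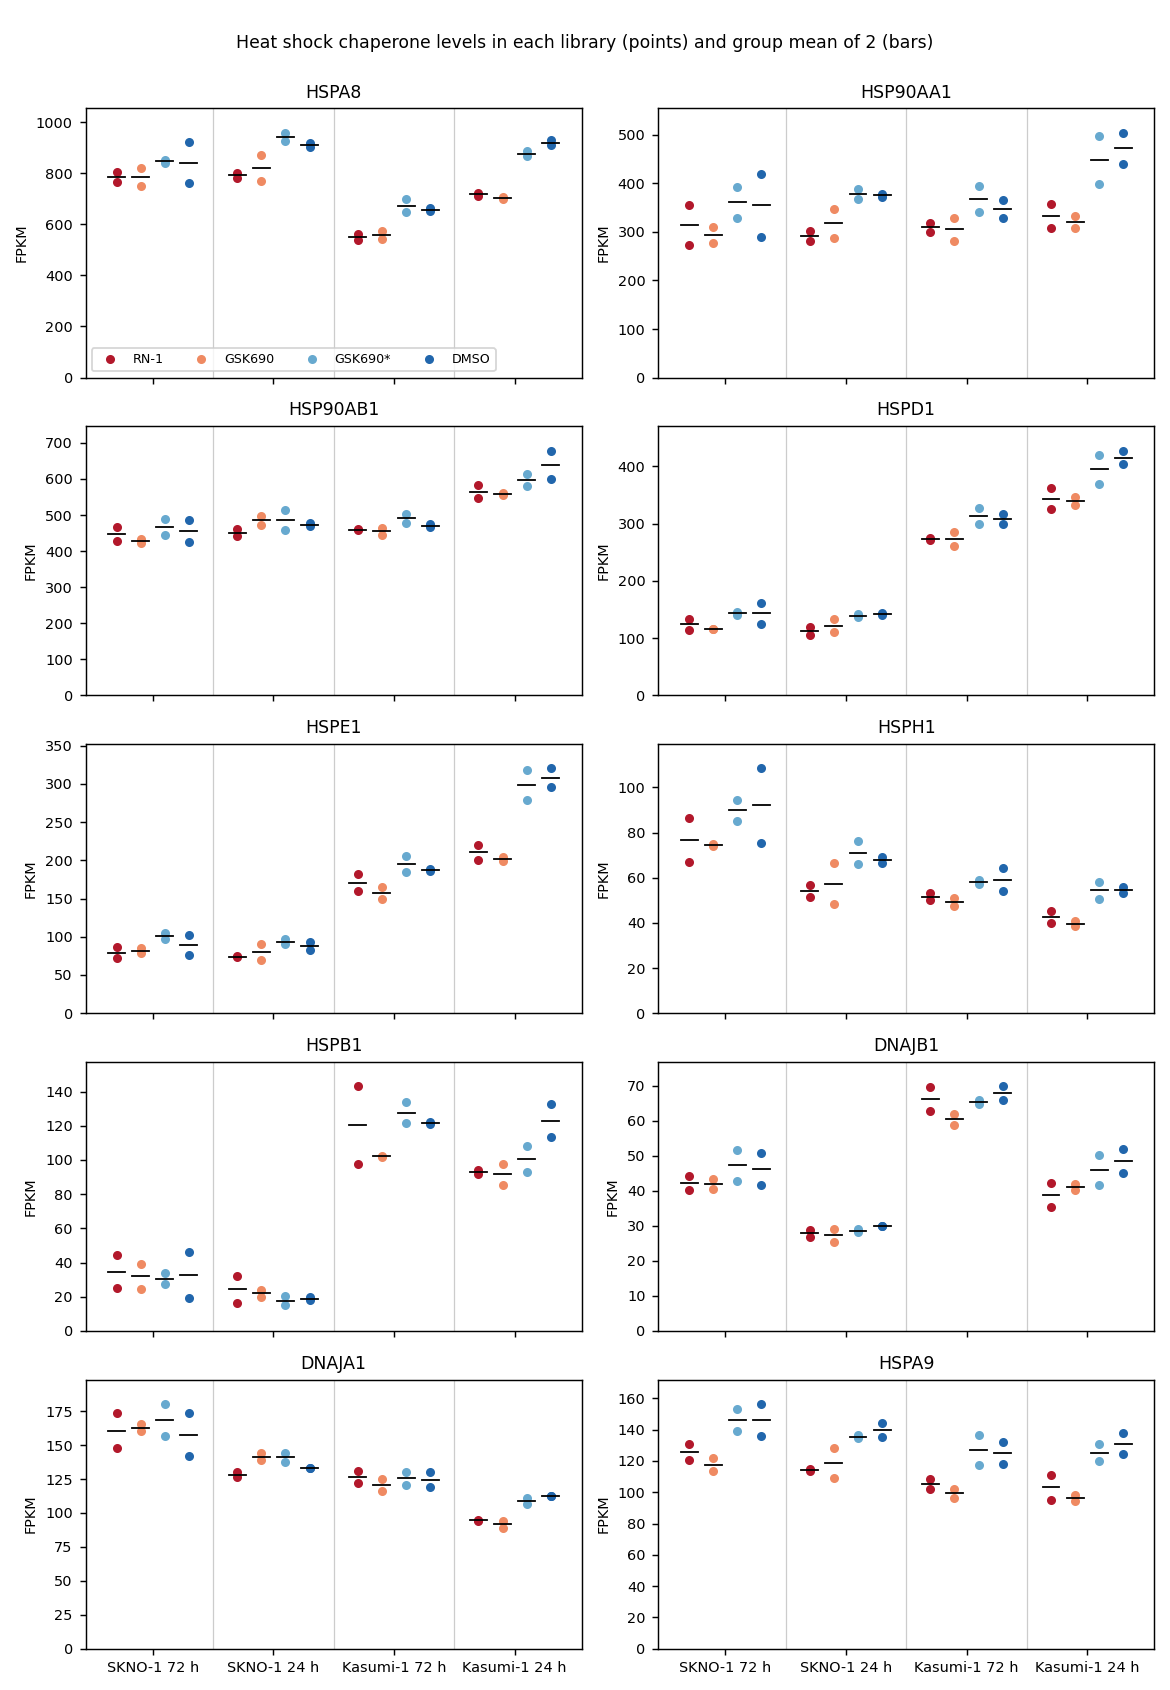
FPKM of each member gene (y axes, from 0) in all 32 libraries, by cell line and time (x axes) and agent (colours); each point is a library and each bar the mean of 2. HSPD1, HSPE1, HSPB1 and DNAJB1 are lower in SKNO-1 than in Kasumi-1 at matched times, and HSPA9 lies lower with RN-1 and GSK690 than with GSK690* and DMSO in each set without overlap.

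With the KDM1A inhibitors, most of these genes lay lower than with the controls by a small amount. The median difference over the 10 genes, RN-1 and GSK690 minus GSK690* and DMSO on the log2(FPKM + 1) scale, was -0.19 in SKNO-1 at 72 h, -0.22 in SKNO-1 at 24 h, -0.20 in Kasumi-1 at 72 h and -0.30 in Kasumi-1 at 24 h. After quantile normalization the medians were -0.15, -0.21, -0.21 and -0.19 in the same order, so the order of the sets depends on the scaling. Over all tested genes the medians were -0.022, -0.019, -0.017 and -0.014 in the same order. The number of members for which all 4 inhibitor libraries lay below all 4 control libraries was 1 in SKNO-1 at 72 h, 4 in SKNO-1 at 24 h, 6 in Kasumi-1 at 72 h and 7 in Kasumi-1 at 24 h. Of all genes, 6.68%, 8.37%, 13% and 18.2% lay wholly below in the same order; since the members were chosen on this contrast, nothing is read from the comparison.

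**Figure D2:**
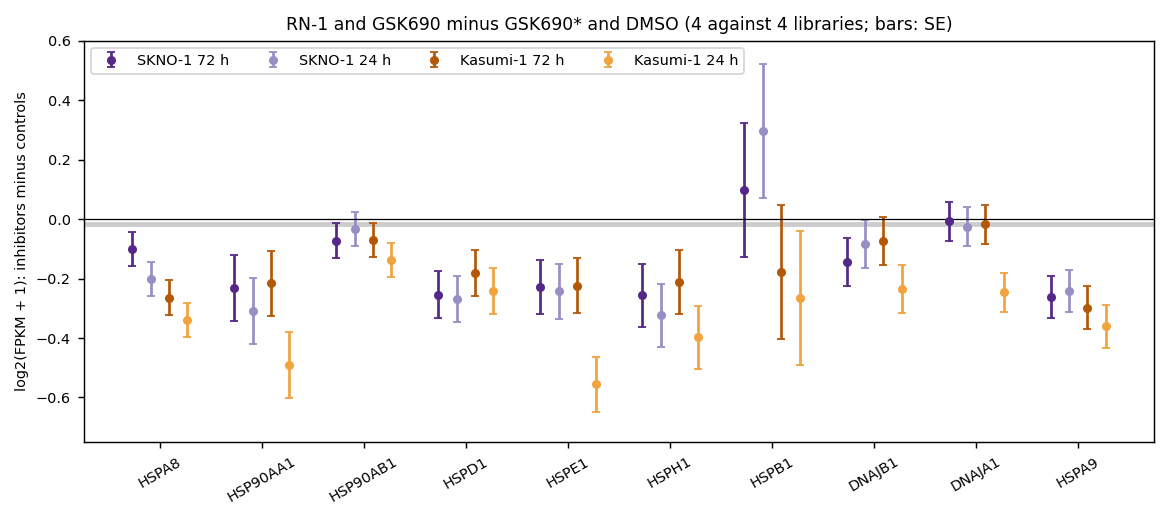
Difference in log2(FPKM + 1) between the inhibitors (RN-1, GSK690) and the controls (GSK690*, DMSO) for each member and set (y axis); points are estimates from 4 against 4 libraries, bars their SE, and the grey band the range of the all-gene medians. All members but HSPB1 lie below 0 in all 4 sets. DNAJA1 lies near 0 outside Kasumi-1 at 24 h (with its sign turning under other scalings). HSP90AB1 in SKNO-1 at 24 h was 0.0070 without the first GSK690* library. HSPB1 is above 0 in SKNO-1, though not at 72 h once the first DMSO library is left out (-0.21).

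Within the HSP70 system, HSPA9 (the mitochondrial HSP70, mortalin) split without overlap in all 4 sets. In SKNO-1 at 72 h it read 131 and 121 FPKM with RN-1, 114 and 122 FPKM with GSK690, 153 and 139 FPKM with GSK690* and 156 and 136 FPKM with DMSO. In Kasumi-1 at 24 h it read 111 and 95.2 FPKM with RN-1, 98 and 94.4 FPKM with GSK690, 131 and 119.6 FPKM with GSK690* and 138 and 124 FPKM with DMSO. Every inhibitor library lay below every control library in these 2 sets and in the other 2. The log2 differences were -0.26 ± 0.0716 and -0.24 ± 0.0716 in SKNO-1 at 72 h and 24 h, and -0.30 ± 0.0716 and -0.36 ± 0.0716 in Kasumi-1 at 72 h and 24 h (SE, 4 against 4 libraries). After quantile normalization the last of these was -0.23.

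HSPA8 was low with both inhibitors in Kasumi-1. At 72 h it read 537 and 561 FPKM with RN-1, 574 and 542 FPKM with GSK690, 699 and 646 FPKM with GSK690* and 650.3 and 665 FPKM with DMSO in that line. At 24 h it read 721 and 712 FPKM with RN-1, 699.8 and 705 FPKM with GSK690, 887 and 866 FPKM with GSK690* and 930.4 and 909 FPKM with DMSO. There was no overlap between inhibitor and control libraries at either time in Kasumi-1, nor at 24 h in SKNO-1, where the levels were 779.7 and 802 FPKM with RN-1, 770.0 and 872 FPKM with GSK690, 958 and 924 FPKM with GSK690* and 919.6 and 902 FPKM with DMSO. In SKNO-1 at 72 h they overlapped: the second DMSO library read 760.5 FPKM, below 3 of the 4 inhibitor libraries. Its log2 differences were -0.10 ± 0.058, -0.20 ± 0.058, -0.26 ± 0.058 and -0.34 ± 0.058 over SKNO-1 at 72 h and 24 h and Kasumi-1 at 72 h and 24 h. The first of these was -0.031 without the first DMSO library and -0.17 without the second.

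HSPH1 (HSP110), a nucleotide exchange factor for HSP70, read 45.3 and 39.9 FPKM with RN-1, 40.8 and 38.4 FPKM with GSK690, 58 and 50.7 FPKM with GSK690* and 56 and 53.2 FPKM with DMSO in Kasumi-1 at 24 h. Inhibitor libraries all lay below controls there and at 72 h in that line, while in SKNO-1 the ranges overlapped at both times. Its log2 difference was -0.40 ± 0.107 in Kasumi-1 at 24 h and -0.26 ± 0.107 in SKNO-1 at 72 h. The SKNO-1 value was -0.13 without the first DMSO library, -0.17 without the second RN-1 library and -0.39 without the second DMSO library. Of the J proteins that start the HSP70 cycle, DNAJA1 read 93.9 and 95.1 FPKM with RN-1, 89.1 and 94.3 FPKM with GSK690, 111 and 107 FPKM with GSK690* and 112 and 112 FPKM with DMSO in Kasumi-1 at 24 h, without overlap and with a log2 difference of -0.25 ± 0.0656, or -0.13 after quantile normalization. In the other 3 sets DNAJA1 lay between -0.026 and -0.0079, and its sign turned positive in all 3 under quantile normalization. DNAJB1 had negative values in all 4 sets, -0.15 ± 0.0808, -0.083 ± 0.0808, -0.075 ± 0.0808 and -0.23 ± 0.0808, and its libraries overlapped in each. Single libraries moved the first 3 of these by more than 1.5 times: the SKNO-1 72 h value was -0.076 without the first DMSO library and -0.079 without the first GSK690* library, the SKNO-1 24 h value -0.035 without the first GSK690 library and -0.13 without the second, and the Kasumi-1 72 h value -0.038 without the second RN-1 library. After quantile normalization DNAJB1 was at -0.089 in SKNO-1 at 72 h and -0.054 at 24 h.

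Of the cytosolic HSP90 pair, HSP90AA1 read 358 and 308 FPKM with RN-1, 333 and 307 FPKM with GSK690, 497 and 399 FPKM with GSK690* and 504 and 440.2 FPKM with DMSO in Kasumi-1 at 24 h, the inhibitor libraries all below the controls. In SKNO-1 at 24 h it read 282 and 302 FPKM with RN-1, 288 and 347 FPKM with GSK690, 368 and 387 FPKM with GSK690* and 372 and 378 FPKM with DMSO, again without overlap. Its log2 differences were -0.49 ± 0.111 and -0.31 ± 0.111 in these sets, the first of which was -0.33 under another scaling. At 72 h HSP90AA1 was at -0.23 in SKNO-1 and -0.22 in Kasumi-1, with overlap in both lines. The SKNO-1 72 h value ran between -0.36 and -0.099 when 1 library was left out, and the Kasumi-1 72 h value was -0.34 under another scaling. HSP90AB1 had -0.073 ± 0.0579, -0.034 ± 0.0579, -0.071 ± 0.0579 and -0.14 ± 0.0579 over SKNO-1 at 72 h and 24 h and Kasumi-1 at 72 h and 24 h. Its values depended on single libraries and on the scaling. In SKNO-1 at 24 h the difference was 0.0070 without the first GSK690* library, between -0.075 and -0.015 without 1 of 4 others, -0.0094 after scaling by the median of ratios and -0.15 after quantile normalization. At 72 h in that line it was -0.025 without the first DMSO library and -0.12 without the second, with -0.038 and -0.040 without the first GSK690* or the second RN-1 library. In Kasumi-1 at 72 h it was -0.19 after quantile normalization. The ratio of HSP90AA1 to HSP90AB1 was 0.553 to 0.615 in inhibitor libraries and 0.688 to 0.809 in control libraries of Kasumi-1 at 24 h, without overlap, and 0.608 to 0.697 against 0.717 to 0.844 in SKNO-1 at 24 h. At 72 h these ratios overlapped in both lines.

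For the mitochondrial chaperonin, HSPE1 in Kasumi-1 at 24 h read 219.8 and 201 FPKM with RN-1, 204 and 199 FPKM with GSK690, 319 and 279 FPKM with GSK690* and 320.2 and 296 FPKM with DMSO. HSPD1 in the same libraries read 362 and 325 FPKM with RN-1, 347 and 333 FPKM with GSK690, 420.3 and 369 FPKM with GSK690* and 427 and 403 FPKM with DMSO. The libraries of each gene split without overlap, with log2 differences of -0.56 ± 0.0914 for HSPE1 and -0.24 ± 0.0775 for HSPD1, the second of which was -0.13 after quantile normalization. The ratio of HSPD1 to HSPE1 was 1.62 to 1.70 in inhibitor libraries and 1.32 to 1.36 in control libraries of that set, whereas the 2 ranges overlapped in the other 3 sets. HSPD1 also read 105 and 119.7 FPKM with RN-1, 110.0 and 133 FPKM with GSK690, 136 and 141 FPKM with GSK690* and 143 and 141 FPKM with DMSO in SKNO-1 at 24 h, without overlap. HSPE1 was at -0.23 and -0.24 in SKNO-1 at 72 h and 24 h, with overlap at both times. In Kasumi-1 HSPE1 was at -0.22 at 72 h, without overlap, and its 24 h value was -0.41 under another scaling. The HSPD1 locus of the deposited annotation (hg19 chr2:198351304-198381461) contains that of HSPE1 (chr2:198364717-198368181), and the handling of strand and of reads shared by the 2 is not given in the sources used here, so their separate values are uncertain.

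HSPB1, which holds unfolded proteins and stabilizes actin, had the largest errors of the 10 and positive differences in SKNO-1. In SKNO-1 at 24 h it read 32.4 and 16.5 FPKM with RN-1, 24.1 and 20.0 FPKM with GSK690, 20.4 and 15.1 FPKM with GSK690* and 17.9 and 19.9 FPKM with DMSO, with overlap and a log2 difference of 0.30 ± 0.226. That difference was 0.062 without the first RN-1 library, 0.53 without the second and 0.19 without the second GSK690* library. In SKNO-1 at 72 h it read 25.1 and 44.3 FPKM with RN-1, 24.7 and 39.3 FPKM with GSK690, 27.4 and 33.7 FPKM with GSK690* and 19.2 and 46.2 FPKM with DMSO, a spread between replicates as wide as the set. Its difference there was 0.10 ± 0.226 and ran between -0.21 without the first DMSO library and 0.40 without the second; it was also negative without the second RN-1 (-0.10) or the second GSK690 library (-0.065). In Kasumi-1 it was -0.18 ± 0.226 at 72 h and -0.27 ± 0.226 at 24 h, with overlap at both times. The 72 h value was -0.31 without the first RN-1 library and -0.042 without the second, and the 24 h value was -0.14 after quantile normalization.

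Libraries moved with these values in 2 places. In SKNO-1 at 72 h, library names carry the prefix CM for the first replicates of DMSO and RN-1 and CP for the other 6. The 2 CM libraries had the highest HSP90AA1 and HSPH1 levels of their own agents and low HSPB1, at 19.2 FPKM (DMSO) and 25.1 FPKM (RN-1), against 46.2 FPKM and 44.3 FPKM in the CP libraries of the same agents. The first replicates of GSK690 and GSK690* carry CP and also read lower HSPB1 than the second, 24.7 against 39.3 FPKM and 27.4 against 33.7 FPKM. Their HSP90AA1 was higher, 309 against 278 FPKM and 393 against 330 FPKM. HSPH1 was higher in the first for GSK690* (94.3 against 85.3 FPKM) but not for GSK690 (74.2 against 74.8 FPKM). Prefix and replicate number are thus partly mixed. As each side holds 1 CM library, a term for the prefix gave the same inhibitor differences. In SKNO-1 at 24 h, the second GSK690 library lay nearer the controls, with HSPA8 at 872 FPKM and HSPE1 at 90.6 FPKM. Without that library the median difference of the 10 genes in that set was -0.27, and those of HSPE1 and HSPH1 were -0.34 and -0.44. Without the first GSK690 library instead, those of HSPE1 and HSPH1 were -0.15 and -0.21. With 2 libraries a group, which of the 2 lies apart cannot be told. The part of the prefix or of that library in the results was not tested further.

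Each inhibitor can also be set beside its own control as a description. In Kasumi-1 at 24 h, RN-1 minus DMSO was -0.36 ± 0.082 for HSPA8, -0.55 ± 0.129 for HSPE1 and -0.51 ± 0.157 for HSP90AA1 (log2 ± SE, 2 against 2 libraries). GSK690 minus its isomer GSK690* was -0.32 ± 0.082 for HSPA8, -0.56 ± 0.129 for HSPE1 and -0.48 ± 0.157 for HSP90AA1 in the same set. Both inhibitors lay below their own control for these 3 genes. These differences make up the contrast on which the members were chosen, so nothing is read from their agreement. HSPE1 and HSP90AA1 had the largest changes of the members in that set.

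Whether the irreversible and the reversible inhibitor differ, and whether the inactive isomer differs from vehicle, was tested by limma on all genes, in 8 comparisons of 2 against 2 libraries at 1 µM. None of the 10 members passed in any of them. For RN-1 minus GSK690 the lowest adjusted p of a member was 0.774 (Benjamini-Hochberg over all tested genes, limma), and for GSK690* minus DMSO every adjusted p rounded to 1.0. No member had an unadjusted p under 0.05. In SKNO-1 at 72 h, RN-1 and DMSO each held 1 library with the prefix CM, and GSK690 and GSK690* held only CP. Both comparisons are therefore partly mixed with the prefix in that set. With a term for the prefix, GSK690* minus DMSO there moved from 0.046 to 0.27 for HSP90AA1 and from 0.19 to 0.36 for HSPE1. For HSPB1 it moved from 0.026 to -0.48, and no member passed with that term. Of all genes, 0% were called in 7 of the 8 comparisons, and 1 gene (0.00841%) was called in Kasumi-1 at 72 h between RN-1 and GSK690; 86 to 839 genes per comparison had an unadjusted p under 0.05.

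Missing the threshold does not show that the agents act alike, and the intervals give what these libraries could still hide. In Kasumi-1 at 24 h the 95% interval of RN-1 minus GSK690 was -0.14 to 0.20 for HSPA8, -0.21 to 0.33 for HSPE1 and -0.27 to 0.38 for HSP90AA1. For GSK690* minus DMSO in the same set it was -0.24 to 0.10 for HSPA8 and -0.31 to 0.22 for HSPE1. HSPB1 had the widest intervals, -0.45 to 0.88 for RN-1 minus GSK690 in Kasumi-1 at 72 h and -0.95 to 0.38 for GSK690* minus DMSO in Kasumi-1 at 24 h. In the last set all 10 estimates were negative, from -0.28 to -0.0079, with a median of -0.072.

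**Figure D3:**
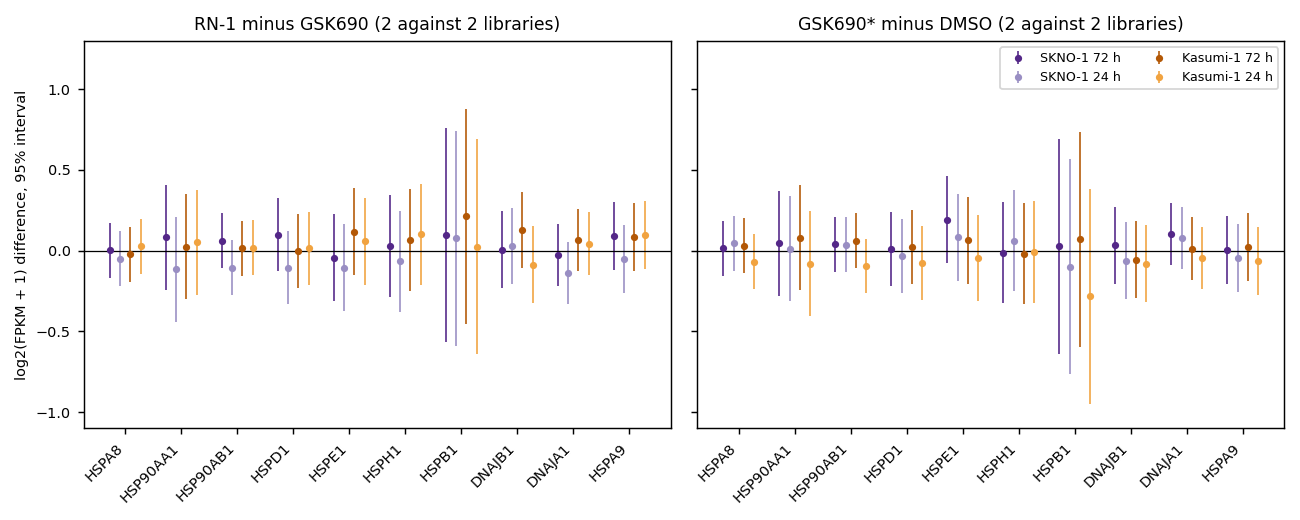
Differences in log2(FPKM + 1) between RN-1 and GSK690 (left) and between GSK690* and DMSO (right) for each member in the 4 sets (colours); points are estimates from 2 against 2 libraries and bars 95% intervals. All intervals shown include 0, and those of HSPB1 are the widest.

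The wider chaperone system was followed with 120 other genes in 9 lists, drawn up by function with earlier results of these data known, of which 110 could be tested. For the inhibitors against the controls, 4 were higher and 12 lower in SKNO-1 at 72 h, 3 higher and 8 lower in SKNO-1 at 24 h, 9 higher and 22 lower in Kasumi-1 at 72 h, and 4 higher and 32 lower in Kasumi-1 at 24 h (limma, adjusted p under 0.05). Of all tested genes, 6.91% were higher and 4.16% lower in SKNO-1 at 72 h, 5.64% and 3.44% in SKNO-1 at 24 h, 13% and 12.7% in Kasumi-1 at 72 h, and 9.69% and 11.2% in Kasumi-1 at 24 h. The split moved with the scaling at 24 h: in Kasumi-1 8 were higher and 18 lower after quantile normalization, after scaling by the median of ratios 7 were higher and 22 lower there, and in SKNO-1 5 were higher and 5 lower after the same scaling. Single libraries moved the counts as well. In SKNO-1 at 24 h, 1 gene was lower without the first GSK690 library and 23 without the second; at 72 h, 2 were lower without the first DMSO or the first GSK690* library, 3 without the second RN-1 library, and 27 without the second DMSO library. In Kasumi-1 the number lower ran from 8 to 25 at 72 h and from 15 to 25 at 24 h when 1 library was left out. A term for the replicate number raised the number lower in SKNO-1 at both times and in Kasumi-1 at 72 h, as given in the closing section. Whether these numbers pair the libraries is not known. In a fit of the 8 libraries of each SKNO-1 set alone, 1 gene of the lists was higher at 72 h and 0 at 24 h, and 0 were lower at either time (limma, adjusted p under 0.05). At an unadjusted p under 0.05, 5 were higher and 22 lower at 72 h, and 9 higher and 30 lower at 24 h.

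Among HSP90 cochaperones and paralogues, 9 of 17 were lower in Kasumi-1 at 24 h and 5 lower and 1 higher at 72 h; 2 were lower in SKNO-1 at 24 h and none at 72 h. Whether the lines differ in this was not tested. FKBP5, a prolyl isomerase of the HSP90-steroid receptor complex, averaged 24.4 ± 1.41 FPKM with the inhibitors and 33.2 ± 0.284 FPKM with the controls in Kasumi-1 at 24 h (SD, n = 4 each), a log2 difference of -0.43 ± 0.0731 with an adjusted p of 2.82e-04 by limma. STIP1 (HOP), which passes clients from HSP70 to HSP90, averaged 110.1 ± 3.62 and 147 ± 9.23 FPKM in the same sets of libraries, at -0.41 ± 0.0689. PPID, a cyclophilin of the same complex, was at -0.44 ± 0.113. All 4 inhibitor libraries lay below all 4 control libraries for these 3 genes.

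In the cytosolic chaperonin TRiC and prefoldin list, 7 of 14 were lower in Kasumi-1 at 24 h, 3 lower and 2 higher in Kasumi-1 at 72 h, 1 lower in SKNO-1 at 72 h and none called in SKNO-1 at 24 h. CCT5, a TRiC ring subunit, averaged 219 ± 6.35 FPKM with the inhibitors and 269 ± 8.03 FPKM with the controls in Kasumi-1 at 24 h, and 253 ± 17.4 and 306 ± 13.8 FPKM at 72 h. PFDN4, a prefoldin subunit, went the other way in Kasumi-1 at 72 h, at 0.36 ± 0.0937 with overlapping libraries.

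Mitochondrial proteostasis genes had the lowest list median in SKNO-1 at 72 h, -0.26 against -0.022 for all genes, with 6 of 14 lower and none higher. GRPEL2 and GRPEL1, nucleotide exchange factors for HSPA9, were at -0.42 ± 0.0956 and -0.29 ± 0.0753 there, and AFG3L2, an inner membrane protease subunit, at -0.30 ± 0.0732; these calls were lost in 1, 5 and 5 of 16 fits. In Kasumi-1, 6 of 14 were lower and 1 higher at 72 h, and 5 lower and 1 higher at 24 h. HSCB, the J protein that serves iron-sulfur cluster assembly, was the gene that rose: it averaged 10.7 ± 1.27 FPKM with the inhibitors and 6.83 ± 0.666 FPKM with the controls in Kasumi-1 at 24 h, at 0.58 ± 0.105 with an adjusted p of 5.12e-04 by limma. It was also higher in Kasumi-1 at 72 h (0.54 ± 0.105) and in SKNO-1 at 24 h (0.38 ± 0.105, a call lost in 6 of 15 fits, the reported one and its alternatives).

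BAG3, an HSP70 cochaperone of selective autophagy and a known HSF1 target, rose in all 4 sets. In Kasumi-1 at 72 h it read 14.7 and 13.8 FPKM with RN-1, 12.4 and 14.6 FPKM with GSK690, 6.63 and 6.64 FPKM with GSK690* and 6.67 and 6.13 FPKM with DMSO. In SKNO-1 at 72 h it read 3.26 and 3.56 FPKM with RN-1, 4.6 and 4.18 FPKM with GSK690, 2.84 and 2.76 FPKM with GSK690* and 2.27 and 2.83 FPKM with DMSO. Inhibitor libraries lay above controls without overlap in both, and in Kasumi-1 at 24 h, but overlapped in SKNO-1 at 24 h, where the second RN-1 library read 1.83 FPKM. The log2 differences were 0.98 ± 0.125 and 0.57 ± 0.125 in Kasumi-1 at 72 h and 24 h (adjusted p 5.30e-06 and 0.00258, limma), and 0.41 ± 0.125 and 0.51 ± 0.125 in SKNO-1 at 72 h and 24 h (adjusted p 0.0367 and 0.012, limma). The Kasumi-1 calls held in all 15 fits of each time, whereas the SKNO-1 call was lost in 10 of 16 fits at 72 h and in 5 of 15 at 24 h; the levels in SKNO-1 were under 5 FPKM.

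HSPA6, a strictly stress-inducible HSP70 of human cells, rose in SKNO-1. At 72 h it read 4.32 and 7.99 FPKM with RN-1, 6.66 and 9.45 FPKM with GSK690, 2.49 and 2.61 FPKM with GSK690* and 1.58 and 2.41 FPKM with DMSO there. At 24 h it read 8.78 and 3.96 FPKM with RN-1, 9.68 and 3.62 FPKM with GSK690, 1.84 and 2.02 FPKM with GSK690* and 1.97 and 1.89 FPKM with DMSO. No inhibitor library overlapped the controls, and the log2 differences were 1.28 ± 0.209 and 1.25 ± 0.209, with adjusted p of 2.50e-04 and 4.59e-04 by limma. The first replicates of both inhibitors read over 8 FPKM and the second under 4 FPKM at 24 h, and the call was lost there when the 8 libraries were fitted alone. In Kasumi-1 HSPA6 read 0.320 to 0.501 FPKM with the inhibitors and 0.135 to 0.225 FPKM with the controls at 72 h, and 0.248 to 0.389 and 0.109 to 0.187 FPKM at 24 h, without overlap at either time. It did not pass there as reported, and missed the threshold in 13 of the 15 fits of each time, and whether the lines differ in this was not tested. Its near-identical copy HSPA7 makes reads of this gene uncertain.

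HSF1, the main activator of the heat shock response, passed in none of the 4 sets, with log2 differences of -0.015 ± 0.0955, 0.041 ± 0.0955, 0.073 ± 0.0955 and 0.15 ± 0.0955. HSPA1A and HSPA1B, the major inducible HSP70 genes, whose near-identical sequences make their split uncertain, averaged 30.3 ± 1.17 and 26.4 ± 1.98 FPKM with the inhibitors and 39.9 ± 4.93 and 33.9 ± 4.63 FPKM with the controls in Kasumi-1 at 24 h. Both were lower there, at -0.38 ± 0.12 and -0.34 ± 0.113 (adjusted p 0.0283 and 0.037, limma, lost in 7 and 9 of 15 fits), and in no other set. Over the whole list of 17 response genes, 2 were higher and none lower in each SKNO-1 set, 1 higher and 2 lower in Kasumi-1 at 72 h, and 1 higher and 4 lower in Kasumi-1 at 24 h. HSPA5 (BiP), the HSP70 of the endoplasmic reticulum, passed in none. Of its list of 22 genes, 2 were higher and 1 lower in Kasumi-1 at 72 h, the set with the most calls.

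Between the 2 cell lines, 4 of these chaperones were lower in SKNO-1 at both times: HSPB1, HSPD1, HSPE1 and DNAJB1. Averaged over the 4 agents at 72 h, 8 of the 10 members differed between SKNO-1 and Kasumi-1 (8 against 8 libraries, limma), and at 24 h all 10 did. Of all tested genes 79.2% and 79% were called, so the number is close to the background and is no result about these genes. DMSO libraries alone gave 7 calls at 72 h and 6 at 24 h. The share of all genes called in DMSO libraries alone is not given here, so nothing is read from these 2 counts. At 72 h all Kasumi-1 library names carry the prefix CM and most SKNO-1 names carry CP, so line and prefix are partly mixed there.

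HSPB1 had the widest gap: it averaged 20.8 ± 5.43 FPKM in SKNO-1 and 102 ± 15.3 FPKM in Kasumi-1 at 24 h (SD, n = 8 each), a log2 difference of -2.26 ± 0.16 with an adjusted p of 1.60e-11 by limma. At 72 h it averaged 32.5 ± 9.94 and 118 ± 16.2 FPKM, at -1.87 ± 0.16. No library of one line overlapped the other at either time. HSPD1 averaged 129 ± 15 FPKM in SKNO-1 and 373 ± 39.3 FPKM in Kasumi-1 at 24 h, at -1.53 ± 0.0548, and HSPE1 averaged 83.8 ± 10.3 and 255 ± 54 FPKM, at -1.57 ± 0.0646. Both mitochondrial chaperonin genes were lower in SKNO-1 at 72 h too, at -1.15 ± 0.0548 and -1.01 ± 0.0646. DNAJB1 was lower in SKNO-1, at -0.59 ± 0.0571 at 24 h and -0.54 ± 0.0571 at 72 h, without overlap.

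The other mitochondrial member did not share that direction. HSPA9 averaged 134 ± 15.4 FPKM in SKNO-1 and 114 ± 14.6 FPKM in Kasumi-1 at 72 h, at 0.23 ± 0.0507 with an adjusted p of 3.05e-04 by limma, and 0.16 ± 0.0507 at 24 h, with overlap at both times. The 72 h call was lost in DMSO libraries alone (0.22, adjusted p 0.0687, limma), and the 24 h call after scaling by the median of ratios and without the inhibitor libraries. DNAJA1 was higher in SKNO-1 without overlap, at 0.38 ± 0.0464 and 0.42 ± 0.0464. HSPH1 was higher at 0.59 ± 0.0754 and 0.38 ± 0.0754 (the 24 h call was lost in DMSO libraries alone), and HSPA8 at 0.42 ± 0.041 at 72 h. At 24 h HSPA8 was 0.11 ± 0.041, a call lost after scaling by the median of ratios, without the second SKNO-1 GSK690 library, in DMSO and GSK690* libraries, and in DMSO libraries alone, where its sign turned (-0.014). HSP90AA1 and HSP90AB1 did not pass at 72 h, with intervals of -0.18 to 0.15 and -0.15 to 0.024; at 24 h they were at -0.31 ± 0.0409 for HSP90AB1, a call lost after quantile normalization, and -0.19 ± 0.0783 for HSP90AA1, whose call was lost in 11 of 24 fits and whose sign turned (0.0068) after quantile normalization.

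**Figure D4:**
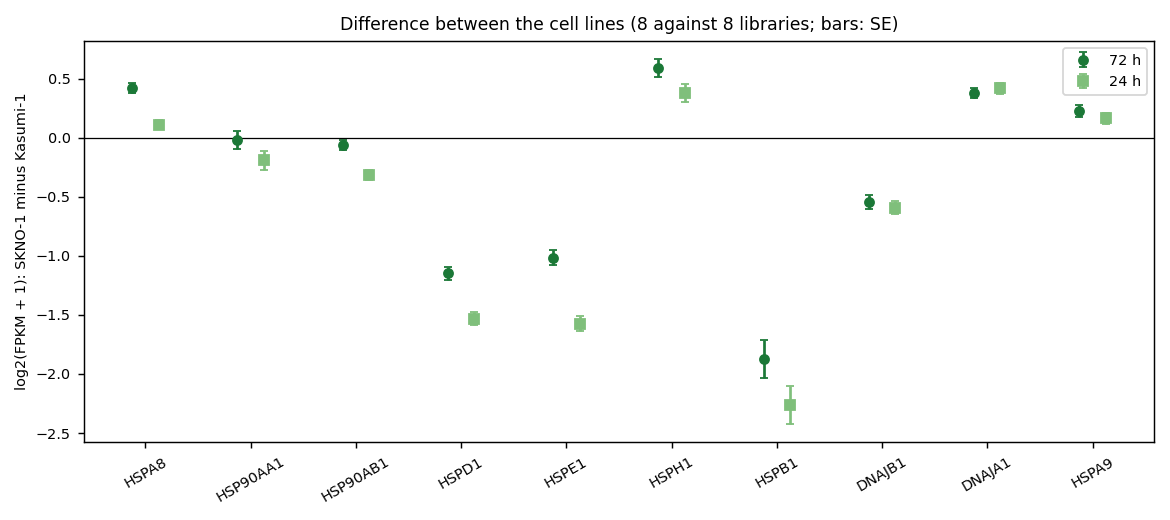
Difference in log2(FPKM + 1) between SKNO-1 and Kasumi-1 for each member at 72 h (circles) and 24 h (squares), averaged over the 4 agents; points are estimates from 8 against 8 libraries and bars their SE. HSPB1, HSPD1, HSPE1 and DNAJB1 lie below 0, DNAJA1 and HSPH1 above, and HSP90AA1 near 0 with a sign that turns at 24 h after quantile normalization.

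Between 72 h and 24 h, values on the deposited scale shifted as a whole. The median of all genes was 0.21 higher at 72 h in SKNO-1 and 0.23 higher in Kasumi-1, with 59.2% of genes called higher and 2.76% lower in SKNO-1, and 62.6% and 5.76% in Kasumi-1. After scaling by the median of ratios the counts were 1691 higher and 1461 lower in SKNO-1 and 2165 higher and 2024 lower in Kasumi-1, against 7042 and 328, and 7443 and 684, as deposited. All 24 h library names carry the prefix SL and no 72 h name does, so time and the handling behind the prefix cannot be told apart. As deposited, 4 members were called higher and 0 lower in SKNO-1, and 3 higher and 5 lower in Kasumi-1 (limma). Since the scale shifted, differences between the times are given relative to the all-gene median.

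Relative to it, DNAJB1 rose in both lines, by 0.42 in SKNO-1 and 0.35 in Kasumi-1. It averaged 44.4 ± 4.45 FPKM at 72 h and 28.4 ± 1.55 FPKM at 24 h in SKNO-1, and 64.9 ± 3.76 and 43.5 ± 5.34 FPKM in Kasumi-1 (SD, n = 8 each), without overlap in either line. The call held in all fits of both lines, with adjusted p of 7.88e-08 and 5.27e-08 by limma as deposited. In Kasumi-1, HSPE1 averaged 177 ± 18.3 FPKM at 72 h and 255 ± 54 FPKM at 24 h, which is -0.72 relative to the median, and it kept its sign under each scaling. HSPA8 and HSP90AB1 in Kasumi-1 were at -0.62 and -0.55, but after quantile normalization their differences were positive, 0.27 and 0.20. The other members of both lines either missed the threshold or lost it or turned sign in at least 1 scaling. The line difference changed with time for 4 of the 10 members (limma, a test of that change, against 16.7% of all genes), all 4 with positive values: HSPE1 (0.56 ± 0.0914), HSPD1 (0.38 ± 0.0775), HSPA8 (0.31 ± 0.058) and HSP90AB1 (0.25 ± 0.0579). HSPE1 passed in every alternative run. After quantile normalization HSPA8 no longer passed (0.25), and HSPD1 (-0.11) and HSP90AB1 (-0.097) turned sign.

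**Figure D5:**
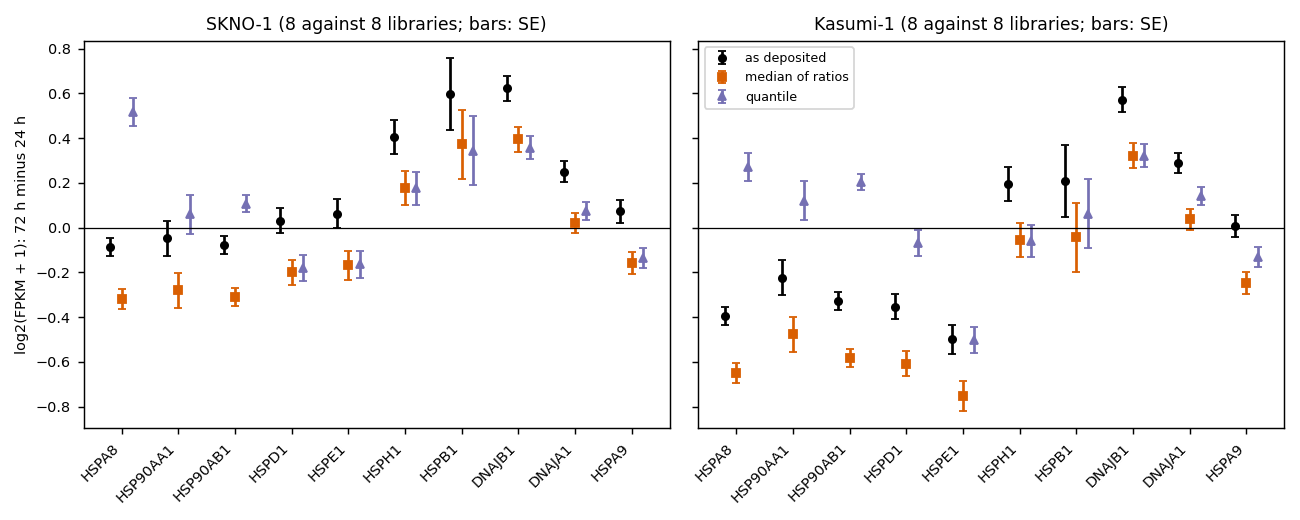
Difference in log2(FPKM + 1) between 72 h and 24 h for each member in SKNO-1 (left) and Kasumi-1 (right), as deposited (circles), after scaling by the median of ratios (squares) and after quantile normalization (triangles); points are estimates from 8 against 8 libraries and bars their SE. DNAJB1 is above 0 and Kasumi-1 HSPE1 below 0 under all 3, while HSPA8 and HSP90AB1 change sign with quantile normalization.

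The members also varied together between replicates of the same group. Over the residuals of the 16 groups, 36 of the 45 pairs of members had a positive Pearson correlation, with a median of 0.65 and a range of -0.73 to 0.93. HSPB1 had a negative correlation with each of the other 9, with a median of -0.51, and DNAJB1 had the next lowest median, 0.28. These values rest on 16 residual degrees of freedom and on genes measured in the same libraries, so they are given as a description. Pairs of other genes were not computed, so nothing is read from them about the members in particular. Among genes outside the members and lists, those whose levels, centred within line and time, correlated most with the mean of the members over the 32 libraries were SSB (r = 0.945), XRCC6 (0.943), SNRPG (0.940), PA2G4 (0.939) and H2AFZ (0.939). Such centring keeps the difference between inhibitors and controls, on which the members were chosen. These correlations are therefore a description too, and the part of that difference in them was not tested.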

How the data were processed

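RNA from 32 libraries of 2 cell lines was analysed from the deposited gene table. Its values are FPKM made by the authors; the submitters' processing notes name TopHat 1.4.1, Cufflinks and hg19, and the gene annotation used for counting, the strand setting and the read depth are not given in the sources used here. RNA came from Trizol lysis or Qiagen kits, per the labels' protocols, without saying which library had which. Without counts, no counting interval could be given. Per-library FPKM sums were 332648 to 395945.

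limma 3.58.1 (R 4.3.3) was run on log2(FPKM + 1) with a mean for each of 16 groups, with trended variance moderation, for the 11890 genes that reached 1 FPKM in 2 or more libraries. Missing cells, 102 in 30 genes and none in a member, were left missing. P-values were adjusted by Benjamini-Hochberg over all genes tested, with a threshold of 0.05. The scripts were tested on simulated data. The 10 members and the other chaperone lists were chosen with earlier results of these data known, so members carry no test in the inhibitor contrast. Other genes were named if among the 3 largest changes that passed in their list and contrast; HSF1, HSPA1A, HSPA1B, HSPA5 and BAG3 were followed whatever their values, and 5 genes were named for likeness to the mean of the members. Processed pseudogenes of HSPA8, HSPD1, HSPE1 and others are known and have no rows of their own in the table; reads shared with them are uncertain. Alternatives were another pseudocount, no filter, median-of-ratios scaling, quantile normalization, a replicate block, a term for the prefix of library names, fits on fewer libraries and leaving out each library. The prefix term was not run for the change of the line difference with time.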

Additional observations from a re-analysis of the deposited data

Results flagged for a closer look

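The difference between SKNO-1 and Kasumi-1 was not the same at 72 h and 24 h for 4 members, by a test of the difference itself (limma, adjusted over all genes, 8 libraries in each line and time). Of all 11882 genes tested, 1987 (16.7%) passed as well, and the number of members was not tested against that share. The line difference at 72 h minus that at 24 h was 0.56 ± 0.0914 (adjusted p 2.22e-04) for HSPE1, 0.38 ± 0.0775 (adjusted p 0.00165) for HSPD1, 0.31 ± 0.058 (adjusted p 8.43e-04) for HSPA8 and 0.25 ± 0.0579 (adjusted p 0.00475) for HSP90AB1, in log2 units with SE. For HSPE1 and HSPD1 the deficit of SKNO-1 was smaller at 72 h. The HSPE1 value passed under all 37 alternatives, whereas those of HSPD1 and HSP90AB1 turned negative and that of HSPA8 (0.25) no longer passed after quantile normalization. This test was added after the data were seen. Time and the prefix of the library names cannot be told apart. At 72 h all Kasumi-1 names carry CM and most SKNO-1 names carry CP, so line and prefix are partly mixed too. None of the 37 alternatives held a term for the prefix. The other 6 members did not pass.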

How the results depend on the processing

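Depth is unknown and limits small differences, and 2 libraries a group leave wide intervals. No member passed between RN-1 and GSK690 or between GSK690* and DMSO under any alternative run. The replicate numbers are shared by only 2 libraries a group, so they need not pair them: deviations of same-numbered libraries correlated at 0.043 to 0.70 (median 0.33), over 0.1 in 22 of 24 group pairs.
With the replicate block, other chaperone genes counted 38 lower in SKNO-1 at 72 h, 9 higher and 30 lower in SKNO-1 at 24 h, 34 lower in Kasumi-1 at 72 h and 7 higher in Kasumi-1 at 24 h.
In fits of each set alone they counted 1 higher and 0 lower in SKNO-1 at 72 h, 0 higher and 0 lower in SKNO-1 at 24 h, 12 lower in Kasumi-1 at 72 h and 8 higher in Kasumi-1 at 24 h.
With the prefix term 21 were lower in SKNO-1 at 72 h.
Median-of-ratios scaling gave 5 higher and 5 lower in SKNO-1 at 24 h and 7 higher in Kasumi-1 at 24 h; quantile normalization gave 8 higher and 18 lower in Kasumi-1 at 24 h, where the members' median became -0.195.
Leaving out 1 library gave 1 to 5 higher and 2 to 27 lower in SKNO-1 at 72 h, 1 to 5 higher and 1 to 23 lower in SKNO-1 at 24 h, 5 to 11 higher and 8 to 25 lower in Kasumi-1 at 72 h, and 15 to 25 lower in Kasumi-1 at 24 h.
DMSO libraries alone gave 6 members called between the lines at 24 h, with HSPA8 at -0.014, and 1 between the times in SKNO-1. With the prefix term, 7 were called between the times in SKNO-1. The shares of all genes called in these fits are not given here, so nothing is read from these counts of members.
After quantile normalization HSP90AA1 was 0.0068 between the lines at 24 h.
Between the times, quantile normalization gave 0.52 for HSPA8, 0.11 for HSP90AB1, -0.18 for HSPD1, -0.16 for HSPE1 and -0.14 for HSPA9 in SKNO-1, and 0.27 for HSPA8, 0.12 for HSP90AA1, 0.20 for HSP90AB1, -0.059 for HSPH1 and -0.13 for HSPA9 in Kasumi-1.
Median-of-ratios scaling gave -0.20 for HSPD1 and -0.16 for HSPA9 in SKNO-1, and -0.054 for HSPH1 and -0.25 for HSPA9 in Kasumi-1.
The change of the line difference with time turned to -0.097 for HSP90AB1 and -0.11 for HSPD1 after quantile normalization. The cause of these moves was not tested.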
